A study of Mus musculus with 16 samples.

Results

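Serotonin uptake, storage, breakdown and reception are described here through 7 genes, Slc6a4, Slc18a2, Maoa, Maob, Htr1a, Htr1b and Htr2c. They were chosen by name, as the probes whose platform gene symbol was one of these. Each gene had 1 probe, so the members were 7 of the 24107 probes on the array. The study measured 16 microarrays with Cy3 and Cy5. Each array set RNA of mice labelled Stagerrer mutant against RNA of controls of the same numbered litter, and the labels give the strain C57BL/6. The mice were taken at postnatal days 5 to 6. The staggerer allele is a whole-body deletion inside Rora, which encodes RORα, a nuclear receptor. RNA came from the ventrobasal nucleus of the thalamus (VB) or from the somatosensory cortex. In each tissue there were 4 litters with 2 arrays each, on which the dyes were swapped. VB RNA was amplified by PCR before labelling and cortex RNA was not, so tissue and labelling method cannot be told apart. The number of pups behind each RNA is not given in the sources used here.

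In newborn rodents, thalamic relay neurons express serotonin genes for a short time without making serotonin. The transporter takes serotonin up into their axons, which end in layer 4 of the somatosensory cortex, and the vesicular transporter packs it into vesicles. Mice that lack monoamine oxidase A have excess serotonin in the first postnatal days and fail to form the whisker map called barrels. Serotonin also reaches receptors on thalamic axon endings and on cortical neurons.

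The deposited values are log ratios, taken as base 2, which is not stated. The labels do not say which RNA is the numerator, nor whether the columns were turned so that all run from 1 genotype to the other. All array titles name control before mutant, whichever RNA was in Cy5, but do not describe the ratio. Each member was therefore followed through 2 quantities. The swap mean was the mean of the 2 arrays of a litter, and holds the genotype ratio if the columns were turned. The swap contrast was the array with mutant RNA in Cy5 minus the array with control RNA in Cy5, divided by 2, and holds the genotype ratio if the columns follow the dyes. A positive contrast then means more RNA in the mutant if the ratio is Cy5 over Cy3, and less if it is Cy3 over Cy5. The data therefore give no genotype direction for any gene. If the other reading holds, a quantity measures differences between the dyes and not the genotype ratio. A value that passed is therefore not shown to be a genotype effect. The number of arrays limits the precision. Ratios carry no level, so the labelled tissues could not be checked against their markers.

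The swap contrast was the wider quantity across the array as a whole. In VB limma called 2784 of 16066 features (17.3%) by the contrast and 50 (0.311%; 37 positive, 13 negative) by the mean, at an adjusted p under 0.05. Quantile normalization left 19 by the mean, 10 positive and 9 negative. In cortex it called 253 of 16521 features (1.53%) by the contrast and 10 (0.0605%; 3 positive, 7 negative) by the mean. Centring and scaling the arrays gave 1 positive and 9 negative instead. Swapped arrays of a litter correlated at -0.27 to -0.47 over all probes in VB and at -0.03 to -0.08 in cortex. Rora itself had 0.05, 0.18, 0.23 and 0.70 in VB with mutant RNA in Cy5 for litters 1 to 4, and -0.45, -0.69, -0.39 and -0.70 with control RNA in Cy5. Its contrast passed in VB (0.42 ± 0.20, SD, n = 4; limma adjusted p = 0.0047) and its mean did not (-0.13, adjusted p = 0.555). In cortex Rora had a mean of -0.45 (adjusted p = 0.358) and a contrast of -0.13 (adjusted p = 0.755), over 3 litters. Where its probe lies relative to the deleted part is unknown, so it does not check the labels.

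Slc6a4, the plasma membrane serotonin transporter, gave the widest separation of the 7 genes in VB. In VB it was positive with mutant RNA in Cy5, at 0.13 in litter 1, 0.13 in litter 2 and 0.48 in litter 3, with no value in litter 4. With control RNA in Cy5 it stood at -0.82, -1.22, -1.14 and -0.82 in litters 1 to 4. All 3 arrays of the first assignment lay above all 4 of the other, with 0.95 log2 units between the nearest values. Such a lack of overlap was seen for 27.8% of the VB features with at least 3 arrays on each side. The control-in-Cy5 mean was -1.0, and 18 of 17344 features, Slc6a4 included (0.104%), were at or below it. Tested alone, those arrays passed (limma adjusted p = 0.000545), as did 8.02% of features. The arrays with mutant RNA in Cy5, tested alone, had the opposite sign, a mean of 0.24, and did not pass (limma adjusted p = 0.233).

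The swap contrast of Slc6a4 in VB was 0.47, 0.67 and 0.81 in litters 1 to 3. Its average was 0.65 ± 0.17 (SD, n = 3 litters; 1.57-fold), with a limma 95% interval of 0.46 to 0.85 and an adjusted p of 0.000672. It ranked 311 of 16066 features by size, and 17.3% of features passed. The swap mean was -0.35, -0.55 and -0.33 in the same litters, an average of -0.41 ± 0.12 (0.753-fold). That value did not pass (limma adjusted p = 0.0952), although it ranked 159 of 16066 by size, and its 95% interval ran from -0.59 to -0.23. Without litter 4, which gave Slc6a4 no pair, and with at least 2 litters required, the same mean was tested among 18563 features and passed (limma adjusted p = 0.0391), as did 0.937% of them.

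Slc18a2, the vesicular monoamine transporter that loads serotonin into vesicles, had the same arrangement in VB with smaller values. With mutant RNA in Cy5 it had 0.007, 0.10, -0.08 and 0.38 in litters 1 to 4. With control RNA in Cy5 it had -0.55, -0.60, -0.39 and -0.74. The assignments did not overlap, and the nearest arrays were 0.31 apart. The swap contrast was positive in all 4 litters (0.28, 0.35, 0.15 and 0.56), with an average of 0.34 ± 0.17 (SD, n = 4; 1.26-fold; limma adjusted p = 0.0124). It did not pass without litter 4, at 0.26 (adjusted p = 0.0535), where 14.1% of features did. The swap mean was -0.27, -0.25, -0.23 and -0.18, and its average of -0.23 ± 0.04 did not pass (adjusted p = 0.217). A different number of cells that express a gene and a different amount of RNA per cell cannot be told apart in tissue RNA.

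**Figure D1:**
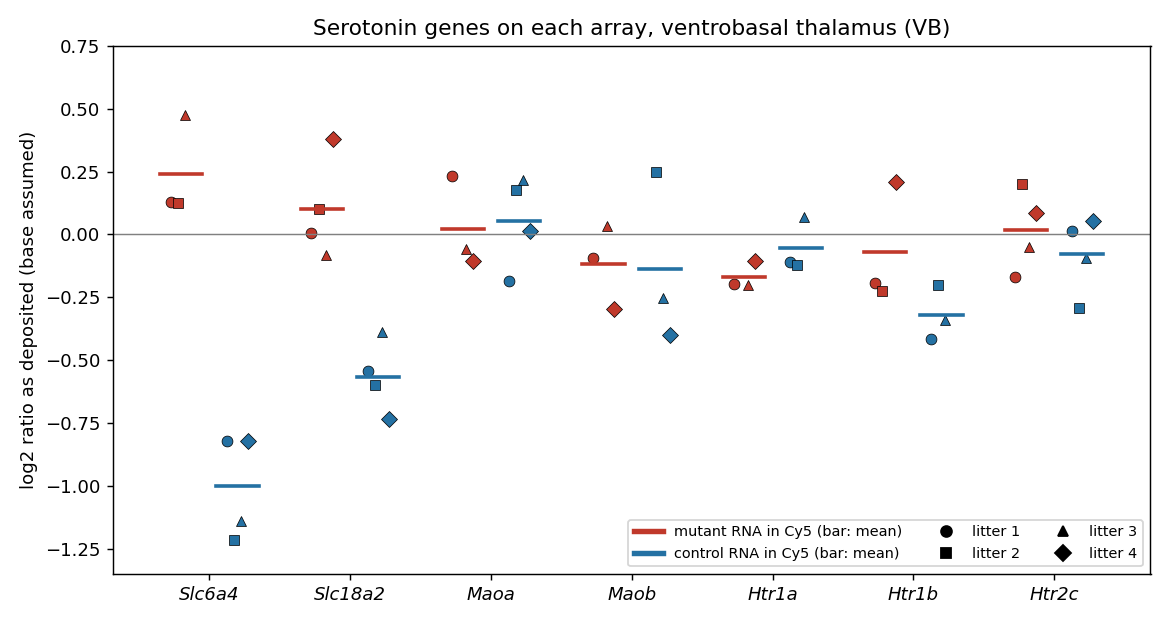
Log2 ratio as deposited (vertical axis, base assumed) of the 7 genes on each VB array, with mutant RNA in Cy5 in red and control RNA in Cy5 in blue. Markers give the litter and bars the mean of an assignment. The red and blue arrays are apart for Slc6a4 and Slc18a2 and overlap for the other 5 genes.

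Promoter sequence is shown for both transporters because the dye assignments did not overlap in VB for either. Such a lack of overlap was seen for 27.8% of VB features with at least 3 arrays on each side. Htr2c is shown because it was the member whose window held a letter match. RORα binds AGGTCA preceded by bases rich in A and T. The sequences are RefSeq's, build GRCm38.p6, 250 bases before the annotated start, read 5′ to 3′ on the gene's strand. The windows were chr11:76998347-76998596 for Slc6a4, chr19:59260628-59260877 for Slc18a2 and chrX:146962263-146962512 for Htr2c, all on the plus strand. Capitals mark AGGTCA on either strand.
Slc6a4: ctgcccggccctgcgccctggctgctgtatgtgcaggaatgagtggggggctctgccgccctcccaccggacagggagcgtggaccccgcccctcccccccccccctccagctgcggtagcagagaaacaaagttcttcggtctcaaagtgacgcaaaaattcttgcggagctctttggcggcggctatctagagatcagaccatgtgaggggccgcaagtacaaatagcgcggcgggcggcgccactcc
Slc18a2: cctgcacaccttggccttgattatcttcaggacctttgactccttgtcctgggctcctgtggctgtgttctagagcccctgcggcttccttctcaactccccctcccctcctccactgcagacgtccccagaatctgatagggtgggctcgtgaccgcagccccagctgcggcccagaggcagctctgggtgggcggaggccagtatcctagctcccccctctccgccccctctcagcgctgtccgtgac
Htr2c: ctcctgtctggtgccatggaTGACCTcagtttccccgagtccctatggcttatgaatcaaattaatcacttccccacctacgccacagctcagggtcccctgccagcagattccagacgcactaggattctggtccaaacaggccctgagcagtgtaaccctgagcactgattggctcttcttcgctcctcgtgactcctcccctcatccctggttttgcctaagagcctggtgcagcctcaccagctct

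Of the 7 members, 6 were found in the promoter table. AGGTCA was searched on both strands of the 300-base window, which adds 50 bases after the start, and was in 1 of the 6 (Htr2c, on the minus strand) against 16.3% of all 32851 promoter windows. The longer forms TAGGTCA and TGGGTCA, of which the first contains AGGTCA, were in 0 of the 6 against 6.45% of all. GC made up 64.8% of the Slc6a4 stretch and 64.0% of that of Slc18a2. These are letter matches only.

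In cortex the same transporters overlapped between the dye assignments, and 9.63% of cortex features did not. Slc6a4 had 0.05, -0.13, -0.41 and -0.44 with mutant RNA in Cy5 in litters 1 to 4. With control RNA in Cy5 it had 0.34, 0.48 and -0.28 in litters 1, 3 and 4, with no value in litter 2. The order of the assignment means was opposite to that in VB (-0.23 and 0.18). The contrast was -0.22 ± 0.20 (SD, n = 3; limma adjusted p = 0.506) and the mean -0.04 ± 0.28 (adjusted p = 0.978). Slc18a2 had 0.56, 0.22, -0.18 and 0.05 with mutant RNA in Cy5, and 0.35, -0.26, 0.39 and -0.46 with control RNA in Cy5. Its contrast was 0.08 ± 0.25 (n = 4; adjusted p = 0.840) and its mean 0.08 ± 0.28 (adjusted p = 0.931).

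The difference between the tissues, which holds tissue and labelling method together, was tested directly. For Slc6a4 the contrast in VB minus that in cortex was 0.88, with a limma 95% interval of 0.55 to 1.20 and an adjusted p of 0.00564, where 455 of 12178 features passed (3.74%). Every VB litter was positive and every cortex litter negative for it. Without litter 3, which left Slc6a4 too few litters for the usual minimum, and with 2 litters enough, the difference was 0.69 and did not pass (adjusted p = 0.0868). In that fit of 14820 features 1.57% passed. For Slc18a2 the difference in contrast was 0.26 (interval -0.04 to 0.55; adjusted p = 0.358) and was not shown. By the swap mean, VB minus cortex was -0.36 for Slc6a4 (interval -0.72 to -0.01; adjusted p = 0.55) and -0.32 for Slc18a2 (interval -0.61 to -0.02; adjusted p = 0.52), where 12 features passed (0.0985%).

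**Figure D2:**
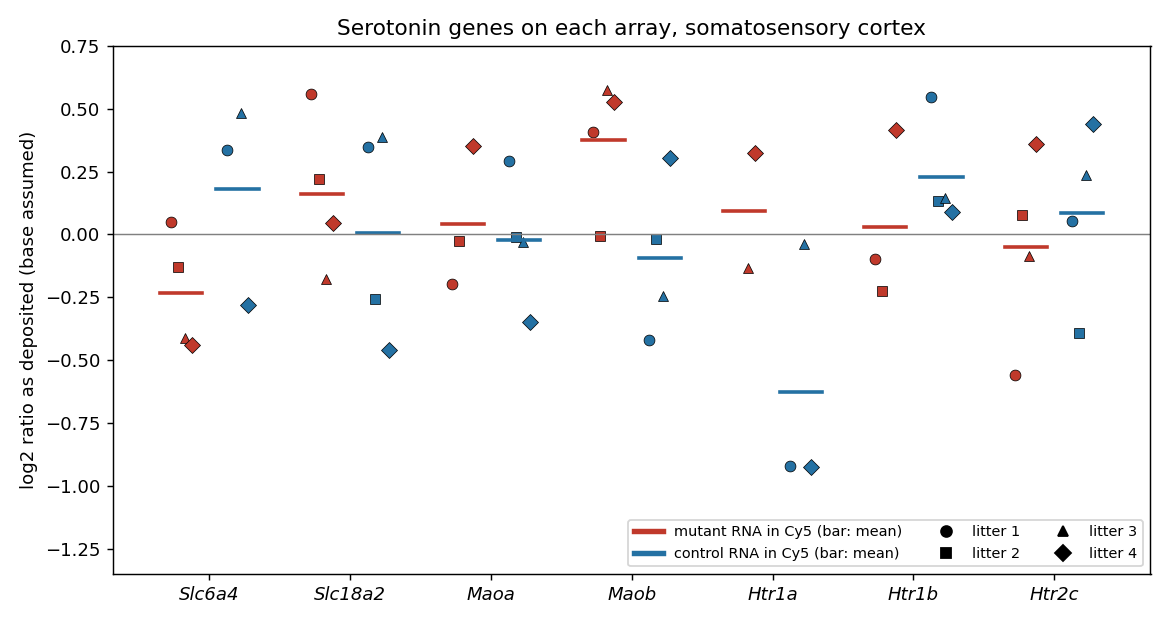
Log2 ratio as deposited (vertical axis, base assumed) of the 7 genes on each cortex array, with the same colours, markers and scale as the plot of VB arrays. The red and blue arrays overlap for all 7 genes, Slc6a4 and Slc18a2 included.

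Maoa and Maob encode the oxidases of the outer mitochondrial membrane that break down monoamines. The A form prefers serotonin, and the B form is found in glia and in serotonin neurons. The averages of Maoa were close to 0 in both tissues, over arrays of both signs. In VB it had 0.23, -0.06 and -0.10 with mutant RNA in Cy5 in litters 1, 3 and 4, and -0.19, 0.18, 0.21 and 0.015 with control RNA in Cy5. In cortex it had -0.20, -0.03 and 0.35 in litters 1, 2 and 4, and 0.29, -0.009, -0.03 and -0.35 in the other assignment. Its VB contrast was 0.0045 (limma 95% interval -0.19 to 0.20) and its VB mean 0.02 (interval -0.15 to 0.19), so changes beyond about 0.20 log2 units lay outside both intervals. In cortex the contrast was 0.03 ± 0.30 (SD, n = 3; interval -0.26 to 0.32), from -0.24 in litter 1 to 0.35 in litter 4, and the mean 0.01 (interval -0.26 to 0.28).

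Maob had too few pairs for the test in VB. Its arrays there held -0.10, 0.03 and -0.30 with mutant RNA in Cy5 in litters 1, 3 and 4, and 0.25, -0.26 and -0.40 with control RNA in Cy5 in litters 2, 3 and 4. With arrays kept apart it had a mean of -0.13 and a contrast of 0.0087 (limma adjusted p = 0.664 and 0.958). In cortex Maob had 0.41, -0.008, 0.57 and 0.53 with mutant RNA in Cy5, and -0.42, -0.02, -0.24 and 0.31 with control RNA in Cy5. The assignments overlapped through litters 2 and 4. The contrast, 0.23 ± 0.21 (n = 4), was positive in all 4 litters, from 0.0045 in litter 2 to 0.41, and did not pass (adjusted p = 0.387). The mean was 0.14 ± 0.20 (adjusted p = 0.830).

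Htr1b is the receptor through which serotonin dampens transmitter release from thalamic axon endings. In VB it had -0.19, -0.23 and 0.21 with mutant RNA in Cy5 in litters 1, 2 and 4, and -0.42, -0.20 and -0.34 with control RNA in Cy5 in litters 1, 2 and 3. The control-in-Cy5 arrays were all negative, and the assignments overlapped narrowly. Only litters 1 and 2 gave pairs, with swap means of -0.31 and -0.21. Where 2 litters were enough, their average of -0.26 did not pass (limma adjusted p = 0.442). In cortex Htr1b had -0.10, -0.23 and 0.42 in litters 1, 2 and 4 with mutant RNA in Cy5, and 0.55, 0.13, 0.14 and 0.09 with control RNA in Cy5. The latter were all positive, with litter 1 apart from the others. The mean was 0.14 ± 0.17 (n = 3; adjusted p = 0.853) and the contrast -0.11 ± 0.25 (adjusted p = 0.794).

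Htr1a, an inhibitory receptor on the cell bodies of serotonin neurons and on cortical and hippocampal neurons, had the fewest values, 11 of 16 arrays. In VB it had -0.20, -0.20 and -0.10 with mutant RNA in Cy5 in litters 1, 3 and 4, and -0.11, -0.12 and 0.07 with control RNA in Cy5 in litters 1, 2 and 3. In cortex it had -0.13 and 0.32 in litters 3 and 4 with mutant RNA in Cy5. With control RNA in Cy5 it had -0.92, -0.04 and -0.93 in litters 1, 3 and 4, so 2 of these 3 arrays were far below the rest. With at least 2 litters its cortex contrast was 0.29 ± 0.47 (n = 2; limma adjusted p = 0.579). The VB contrast on the same terms was -0.09 ± 0.07 (adjusted p = 0.590).

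Htr2c, a receptor that activates phospholipase C and is abundant in the choroid plexus, had values on all 16 arrays. In VB it had -0.17, 0.20, -0.05 and 0.09 with mutant RNA in Cy5, and 0.015, -0.29, -0.09 and 0.06 with control RNA in Cy5. In cortex it had -0.56, 0.08, -0.09 and 0.36, and 0.05, -0.39, 0.23 and 0.44. Arrays of both signs occurred in each assignment of each tissue. Its VB mean was -0.03 (limma 95% interval -0.18 to 0.11; adjusted p = 0.911) and its VB contrast 0.05 (interval -0.11 to 0.21; adjusted p = 0.690). In cortex the mean was 0.02 (interval -0.25 to 0.28) and the contrast -0.07 (interval -0.31 to 0.17).

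**Figure D3:**
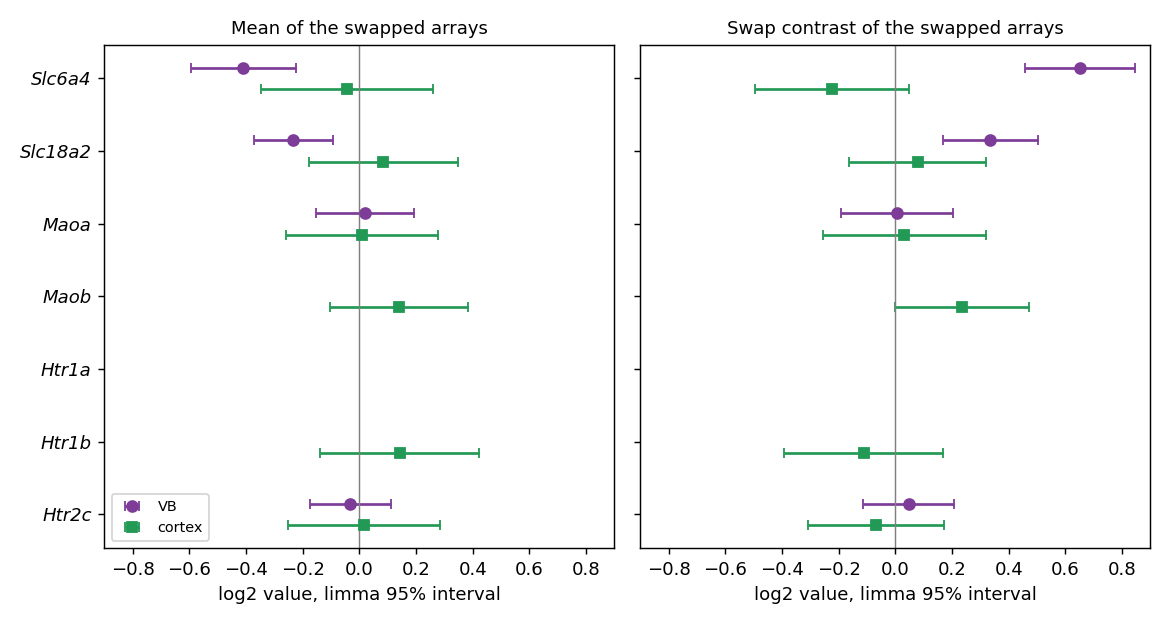
Swap mean (left) and swap contrast (right) of each gene in log2 units with its limma 95% interval, VB as circles and cortex as squares. Genes with fewer than 3 litters of paired arrays have no point. In VB, Slc6a4 lies at -0.41 and 0.65 and Slc18a2 at -0.23 and 0.34, while the other intervals drawn contain 0.

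In count, 4 of the 7 members could be tested in VB and 6 in cortex. By the contrast, 2 of 4 were called in VB, both positive, where 6.97% of all features were called positive. Among all features 32.5% had an unadjusted p under 0.05 in VB and 12.9% in cortex. In cortex 0 of 6 members were called by limma, and 0 had an unadjusted p under 0.05. By the mean, 0 of 4 were called in VB, where 2 had an unadjusted p under 0.05 against 10.2% of all features, and 0 of 6 in cortex, where 0 had one against 7.9%. The median contrast of the 4 members tested in VB was 0.19, against 0.003 over all features. It fell in the gap between 0.05 for Htr2c and 0.34 for Slc18a2. In cortex the median contrast of the 6 members tested was -0.018, against 0.006 over all features.

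**Figure D4:**
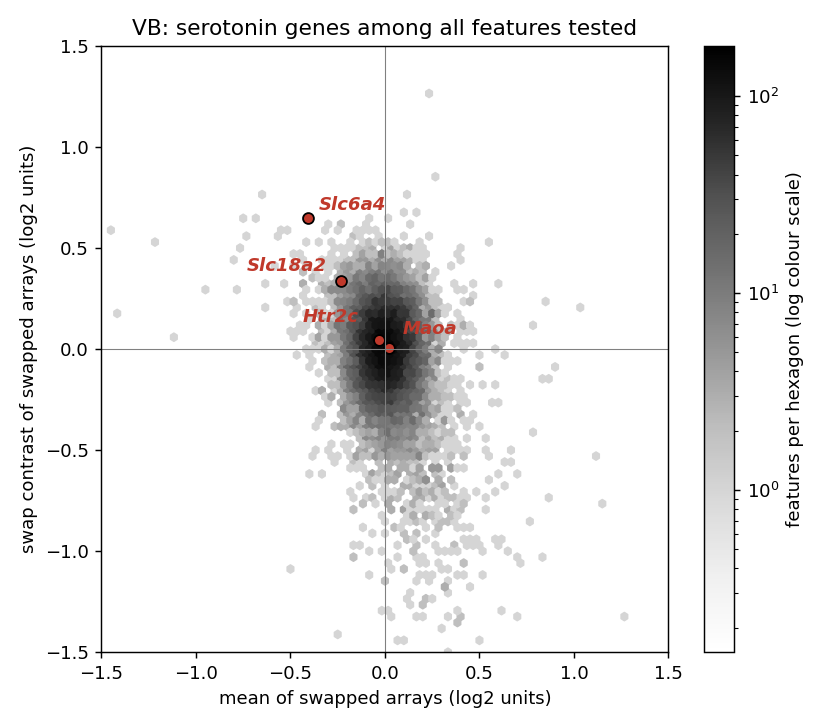
Swap mean (horizontal axis) and swap contrast (vertical axis) of the VB features in log2 units, shaded by their number per hexagon on a log colour scale, with the members tested in red. Of 16066 features, 42 lie outside the axes, which end at 1.5. Slc6a4 lies at the upper left edge and Maoa and Htr2c near the origin.

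Other genes of the pathway were counted by group, from lists chosen with earlier results of these data known. Over all features, limma called 17.3% by the VB contrast, 1.53% by the cortex contrast, 0.311% by the VB mean and 0.0605% by the cortex mean. At an unadjusted p under 0.05 the shares were 32.5%, 12.9%, 10.2% and 7.9% in the same order. Genes of serotonin synthesis and its cofactor gave 5 testable members of 8 in VB and 6 in cortex, and limma called 0 by either quantity (at an unadjusted p under 0.05, 1 in VB and 2 in cortex by the mean and 0 by the contrast). The largest mean in VB was -0.28 for Spr and in cortex -0.37 for Pts, both enzymes of the cofactor tetrahydrobiopterin (adjusted p = 0.224 and 0.466). Pts also had the largest contrasts, 0.14 in VB and -0.18 in cortex (adjusted p = 0.386 and 0.529). Other monoamine transporters gave 6 members in VB, with a median contrast of -0.10, and 5 in cortex, with a median contrast of -0.006. Of these, 0 were called by limma (1 had an unadjusted p under 0.05, by the contrast in cortex). The largest VB contrast was -0.18 for Slc22a3, a low-affinity monoamine carrier (adjusted p = 0.157). The largest other values were a cortex mean of 0.27 for Slc18a1, the vesicular transporter of endocrine cells, and a cortex contrast of -0.32 for Slc29a4, the plasma membrane monoamine transporter (adjusted p = 0.655 and 0.268).

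Of 3 testable genes of further serotonin or monoamine breakdown, 2 passed with positive values by the VB contrast, by which 6.97% of all features were called positive. Sult1a1, a sulfotransferase, had 0.53 ± 0.16 (SD, n = 4; limma adjusted p = 0.000664), and Aanat, which acetylates serotonin on the way to melatonin, had 0.36 ± 0.30 (adjusted p = 0.0282). Their VB means, -0.35 and 0.07, did not pass (adjusted p = 0.404 and 0.842). In cortex 0 of 3 passed by limma (0 at an unadjusted p under 0.05), and the largest values were those of Aldh2, an aldehyde dehydrogenase, with a mean of -0.20 and a contrast of -0.16.

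Of the 11 other serotonin receptors, 9 could be tested in VB and 8 in cortex, and limma called 0 by either quantity. At an unadjusted p under 0.05 there were 3 of 9 by the VB contrast, near the 32.5% of all features, and 1 of 8 by the cortex mean, against 7.9%. The receptor gene Htr4 had the largest values in VB, a contrast of 0.26 (adjusted p = 0.0658) and a mean of 0.16 (adjusted p = 0.525). In cortex these were a mean of 0.31 for Htr6 and a contrast of 0.23 for Htr2b (adjusted p = 0.437 and 0.489). Median contrasts were 0.03 in VB and 0.04 in cortex. Of 15 signalling and interaction partners, 12 were tested in VB and 13 in cortex. In VB the PDZ protein gene Pdzd2 passed by the contrast (-0.27 ± 0.13, limma adjusted p = 0.0241, against 10.4% of all features called negative). In cortex 0 passed by limma, where 1.53% of all features passed by the contrast and 0.0605% by the mean. At an unadjusted p under 0.05 in cortex there were 2 by the mean and 1 by the contrast, against 7.9% and 12.9% of all features. The largest other value of the partners in VB was a mean of 0.15 for the G protein gene Gnai2 (limma adjusted p = 0.638). In cortex these were a mean of 0.33 for the syntaxin gene Stx1a and a contrast of -0.44 for the G protein gene Gnaq (limma adjusted p = 0.658 and 0.102).

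Markers of cells that could bring serotonin genes into the tissue were followed beside the members. For 8 thalamic relay neuron markers other than Slc6a4, the VB array medians were -0.08 to 0.12 with mutant RNA in Cy5. With control RNA in Cy5 they were -0.32 to -0.14, and the assignments did not overlap. Of single VB features with at least 3 arrays on each side, 27.8% did not overlap. No such share was computed for medians of lists. With Slc6a4 in the list, 7 were tested by the VB contrast and 3 passed, all positive: Slc6a4, Rora and Calb2, the calretinin gene (0.23, limma adjusted p = 0.0442). Slc6a4 is itself a member and Rora holds the staggerer deletion, so Calb2 was the only other marker that passed. Gbx2, Prkcd and Lhx2 had contrasts of 0.20, 0.16 and 0.03 and did not pass (limma adjusted p = 0.0776, 0.153 and 0.797). Over all VB features 17.3% passed by the contrast, 6.97% with a positive and 10.4% with a negative value. Tcf7l2, a transcription factor gene of the thalamus, had signs opposite to those of Slc6a4. Its contrast of -0.31 and its mean of 0.21 did not pass (limma adjusted p = 0.197 and 0.474). Tcf7l2, Gbx2, Prkcd and Lhx2 are named after their values were seen. Calb2 also passed by the mean (-0.41, limma adjusted p = 0.0350), by which 0.311% of all VB features passed. Astrocyte markers had VB array medians of -0.01 to 0.10 and of -0.17 to -0.07, also without overlap, and of 7 tested Gja1, the main astrocyte connexin gene, passed by the contrast (0.41) and the mean (-0.57). In cortex Gja1 passed by the mean (-0.93) among 8 tested, where 0.0605% of all features passed. The part these markers have in the transporter values was not tested.

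Raphe serotonin neuron markers had VB array medians of -0.04 to 0.10 and -0.10 to 0.21, and overlapped. Of them 4 of 5 were on the array and 1 could be tested in VB, Gata3, with a contrast of -0.15 (limma adjusted p = 0.138). Choroid plexus markers, set beside Htr2c, had medians of -0.17 to 0.24 and -0.23 to 0.001 in VB, and 1 of 6 passed in each direction by the contrast, Sostdc1 (0.66) and Folr1 (-0.40), beside the 6.97% and 10.4% of all features. Platelet and mast cell markers, set beside Slc6a4, which platelets also use, had medians of 0.01 to 0.24 and -0.12 to 0.06. Of 6 tested, Gp1bb passed with a positive contrast (0.33) and Mcpt4 with a negative one (-0.69), beside the same shares. Among markers of cortical neurons and of the hypothalamus and other neighbours, Neurod6 (0.22) and Hcrt (0.34) passed by the VB contrast, each 1 of 5 tested, against 17.3% of all features. Markers of noradrenergic and dopaminergic neurons, 2 tested in VB and 5 in cortex, had 0 calls by limma. At an unadjusted p under 0.05 there were 2, both by the cortex contrast, against 12.9% of all features. The part of these cells in the member values was not tested.

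Likeness to the transporters was measured as Pearson's r over the arrays, among features with a value on all of them. These arrays share tissue and dye assignment, so r is a description. Over 14 arrays and 5561 features, the genes nearest to Slc6a4 were Ncald, a neuronal calcium sensor (r = 0.896), Ppp2r2b, a regulatory subunit of protein phosphatase 2A (0.881), Atp6v1g1, a subunit of the vacuolar proton pump (0.868), Pgd, an enzyme of the pentose phosphate pathway (0.862), and Tk1, thymidine kinase (0.856). Slc18a2 ranked 28 of the 5561, with r = 0.782, and had 0.848 over the 7 VB arrays and 0.697 over the 7 cortex arrays. The median over all features was -0.002. Htr2c had r = 0.146 with Slc6a4 over the same 14 arrays. Over 16 arrays and 4408 features, the genes nearest to Slc18a2 were Tnrc6a (0.899), Pappa (0.820), Gp1bb (0.810), Tmprss3 (0.794) and Phyh (0.792).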

How the data were processed

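The deposited values were log2 ratios of the channels of an array, normalized by the authors. The base is an assumption. How they scanned the arrays, corrected background, normalized and removed spots is not stated in the labels or the table. Per the labels, Cy3 was channel 1 and Cy5 channel 2 on all 16 arrays. Per array there were 17711 to 22207 values in VB and 19633 to 22580 in cortex, with medians of -0.003 to 0.004. No signal intensities were used, so no filter on dim probes could be made. Probes were named from the platform annotation, updated through RefSeq (15682 by accession, 2966 by symbol, 1694 by synonym, 27 kept, 3738 unnamed), and probes of a gene were averaged.

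The 2 arrays of a litter share their RNA, so the litter was the replicate. Features with at least 3 litters were tested against 0 in each tissue with limma 3.58.1 in R 4.3.3 (eBayes, two-sided, Benjamini-Hochberg over all features, called under 0.05). VB minus cortex was tested over 8 litter values. The labels do not say that the mutant and control RNAs came from separate pools beyond the litter, so p-values measure the spread between litters. The fits were tested on simulated data. Alternatives were normalization, the minimum of litters, robust eBayes, single probes, single dye assignments, arrays kept apart, the litter as a block and leaving out each litter.

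Which of the swap quantities holds the genotype was checked by correlating, between the swapped arrays of a litter, the deviations from the mean of their dye assignment. Turned columns would give positive values. The mean rho was 0.0157 in VB (rank 3 of 24 matchings), with single litters from -0.0095 to 0.0491. In cortex it was 0.046 (rank 1 of 24), and every litter was positive, from 0.0156 to 0.0963, against at most 0.0198 unmatched. The cortex sign is that of turned columns, but the values were small and VB litters had both signs. The sex-linked RNA Xist had the same sign on both cortex arrays of litters 2 to 4, and opposite signs in VB litters 1, 2 and 4. The Y-linked genes were less uniform. In cortex, Uty had the same sign in litter 1 and opposite signs in litters 3 and 4. Kdm5d had the same sign in cortex litters 1, 2 and 4. Eif2s3y had the same sign in cortex litter 1 and opposite signs in litter 4. In VB, signs were the same for Uty in litter 2, Kdm5d in litter 3 and Eif2s3y in litter 4, and opposite in their other pairs. The question was not settled for the 2 tissues together. Across 12178 features the tissues correlated at r = 0.324 by the contrast and 0.0141 by the mean. Deviations of the same litter number correlated between the tissues at r = -0.03 to 0.03. Swapped arrays of a litter, which share RNA, averaged only 0.0157 in VB and 0.046 in cortex. Whether litter numbers pair the tissues could therefore not be decided.

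All 7 members were named with every array value. From the other lists, genes that passed or had the largest value of their list were named. The sex-linked genes were also named for the check of the swap quantities. Members and lists were chosen with earlier results of these data known.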

Additional observations from a re-analysis of the deposited data

Results flagged for a closer look

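The swap contrast of Slc6a4 differed between the tissues, by 0.88 log2 units in VB minus cortex (limma adjusted p = 0.00564), with 3 of 3 VB litters positive and 3 of 3 cortex litters negative.

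Among 25 sets of 4 values tested for a value far from the others, of which chance alone flags about 5%, 1 stood out. Htr1b in cortex with control RNA in Cy5 was 0.55 in litter 1, and its gap to the nearest litter made up 0.880 of the range.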

How the results depend on the processing

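The choice between swap mean and swap contrast sets the sign of both transporters in VB, and depth over background is unknown. The Slc6a4 contrast in VB passed in all alternatives run (0.57 to 0.77). Its mean passed in 1 of the alternatives that use both dye assignments (-0.49 to -0.34). Among the member values, 306 of 344 alternatives kept sign and side of the threshold. Arrays with mutant RNA in Cy5 alone gave 0.24 for Slc6a4 and 0.10 for Slc18a2 in VB, and 0.016 in VB and -0.052 in cortex for Htr2c. Arrays with control RNA in Cy5 alone gave -1.0 and -0.57 for the transporters in VB, which passed, and in cortex 0.18 for Slc6a4, -0.0235 for Maoa and -0.094 for Maob. The VB contrast of Maoa became -0.0157 with arrays kept apart, and its difference between tissues by the mean -0.0079 after quantile normalization.

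With the litter as a replicate block, the difference between tissues gave 16 calls by the mean (12 without it) and 405 by the contrast (455), and Maoa turned to -0.0355 by the mean and 0.0225 by the contrast. It changed no call of a member.

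Calls by the mean in VB numbered 50, and 19 after quantile normalization, 1167 and 1678 with mutant or control RNA in Cy5 alone, and 86 with arrays kept apart. In cortex they numbered 10, and 18 with at least 2 litters, 16 by single probes, and 95 and 152 in single assignments. The VB contrast gave 2784, and 1698 with 4 litters required. Leaving out each litter, with all 3 others required or, chosen after seeing the data, 2 enough, gave 11 to 174 calls by the VB mean, 0 to 181 by the cortex mean, 1056 to 2397 by the VB contrast, 124 to 317 by the cortex contrast, 0 to 14 by the difference in mean and 117 to 233 by the difference in contrast. The highest counts by the mean came without litter 4 (174 in VB, 181 in cortex). With all 3 others required, the cortex mean gave 0 limma calls without litter 1 or litter 2 (713 and 794 at an unadjusted p under 0.05), and 2 and 11 where 2 litters were enough. The difference in mean gave 0 without litter 1 (377 unadjusted) and 1 on those terms. Arrays kept apart for the contrast were also added after seeing the data. The causes were not tested.

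Leaving out a litter gave, by the mean in cortex, -0.16 to 0.11 for Slc6a4, -0.0393 to 0.18 for Slc18a2, -0.0085 to 0.0242 for Maoa and -0.11 to 0.11 for Htr2c. The VB mean of Maoa ran from -0.0112 to 0.0505. By the contrast, Maoa ran from -0.0978 to 0.0747 in VB and from -0.127 to 0.17 in cortex, and Htr2c from -0.019 to 0.094 and from -0.169 to 0.011. The difference between tissues ran for Maoa from -0.0213 to 0.0363 by the mean and from -0.267 to 0.163 by the contrast, and for Htr2c from -0.122 to 0.0463 by the mean.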

Other observations

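Sex-linked genes, which are no members, gave values that differed between litters. Xist, the RNA of the inactive X chromosome, had -2.46 in cortex litter 1 with mutant RNA in Cy5, -2.03 and -1.28 on the swapped arrays of litter 2, and -0.21 to -0.61 on the 4 arrays of litters 3 and 4. In VB it had -0.21 to -0.46 with mutant RNA in Cy5 and 0.05 to 0.55 with control RNA in Cy5. Its VB contrast passed (-0.32 ± 0.19, n = 3; limma adjusted p = 0.0355), and so did that of the Y-linked gene Uty (0.24 ± 0.13, n = 4; adjusted p = 0.0392). The sexes of the pups behind each RNA are not in the labels, and their part in the member values was not tested.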
